A study of Mus musculus with 48 samples.

Results

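DNA replication and nucleotide synthesis genes were followed in mouse pancreatic ductal adenocarcinoma (mPDAC) cells treated or not with N6L, a pseudopeptide antagonist of nucleolin. The group held 47 genes named by symbol, chosen for what their proteins do at the replication fork or in making deoxynucleotides and not for their values. Earlier results of these data were known when the genes were chosen. All 47 were found among the 50600 genes of the count files, and all 47 passed the count filter that left 13889 genes for testing.

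The lysate of each of 6 cultures was split into cytoplasmic and polysomal RNA, which made 12 libraries. The mPDAC cells were a cell line from mice of a mixed FVB/N and C57BL6 background, with an age of 8 weeks in the labels. Cultures 1, 2 and 3 received 50 µM N6L for 48 h, and non-treated (NT) cultures 1, 2 and 4 received none. All cells were given emetine, which holds ribosomes in place, before lysis, and the lysate was cleared of nuclei and mitochondria. The cytoplasmic library held the mRNA of that lysate, and the polysomal library held the mRNA of the pooled heavy fractions of a sucrose gradient. The labels number the cultures and do not say how far apart they were grown, so that the errors below measure the spread between these cultures. Total counts ranged from 19519911 in the polysomes of NT culture 1 to 44972333 in the cytoplasm of N6L culture 2.

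Levels are in CPM, counts scaled to a common library total after TMM normalization, and are relative to all other mRNAs of the same library. A lower value can thus not be told apart from a rise of the other mRNAs, nor can fewer cells in S phase be told apart from less mRNA per cell. Of 9 ductal epithelial markers, 8 reached a mean of 1 CPM, led by Krt18, a keratin of simple epithelia, with 3460 CPM, whereas Epcam lay below 1 CPM in all 12 libraries. Fibroblast, endothelial and islet markers were all below a mean of 1 CPM, as were 5 of 6 acinar markers, 3 of which were at 0 in all libraries. The exceptions were Cela1, an elastase, with 44.9 CPM, and Cd68, with 1.42 CPM and the only 1 of 4 leukocyte markers to reach 1 CPM.

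Replication starts when the origin recognition complex (ORC), with Cdc6 and Cdt1, loads the MCM2-7 helicase onto DNA. Cdc45 and the GINS complex then turn MCM2-7 into the active helicase, polymerase alpha-primase lays primers, and polymerases delta and epsilon extend them with the sliding clamp PCNA, which replication factor C (RFC) loads. In cycling cells many of these genes are transcribed in late G1 and S phase through E2F factors bound near the start of transcription.

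The promoters of 40 of the 47 genes were available as 300 base windows, from 250 bases before to 50 bases after the start. They were searched on both strands for the E2F-type motifs TTTCCCGC, TTTCGCGC, TTTGCCGC and TTTGGCGC. A motif stood in 16 of the 40 windows, or 40.0%, compared with 704 of the 27025 genes with a window, or 2.6%. The 8 windows below are shown because they come from ORC, licensing, helicase, polymerase alpha, clamp loader and ligase genes, with the motif or its complement in capitals and 8 flanking bases on each side, written 5′ to 3′ along the gene. They are from RefSeq on GRCm38.p6, where Orc1 (chr4:108579419-108579442), Cdt1 (chr8:122568039-122568062) and Mcm5 (chr8:75109348-75109371) lie on the plus strand and Lig1 (chr7:13278844-13278867) does so too. Mcm6 (chr1:128359737-128359760), Mcm7 (chr5:138171852-138171875), Pola1 (chrX:93632278-93632301) and Rfc3 (chr5:151651193-151651216) lie on the minus strand. In Mcm5 a second motif on the other strand, TTTGGCGC, overlaps the one in capitals.
Orc1: ggttagtgGCGCGAAAagttttct
Cdt1: actaccttTTTGGCGCcatggcgc
Mcm5: ccaagaacTTTCGCGCcaaaacgt
Mcm6: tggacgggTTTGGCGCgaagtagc
Mcm7: tgacgacgTTTCGCGCcaatttcg
Pola1: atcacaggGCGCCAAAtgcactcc
Rfc3: tcgcgctcGCGGGAAAactctact
Lig1: caaagtgcGCGCGAAAtctgtgtg

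In NT cytoplasm the genes covered a wide range of levels per kilobase of the longest coding transcript. Pcna led with 258.4 CPM per kb, followed by Tk1 with 144.9, Mcm3 with 142.4, Rpa3 with 127.4 and Rrm2 with 121.9 CPM per kb. At the other end stood Orc1 with 8.745, Cdc7 with 7.752 and Dna2 with 3.379 CPM per kb. Among the MCM2-7 subunits, which form a ring with 1 copy of each, the level ran from 44.33 CPM per kb for Mcm4 to 142.4 CPM per kb for Mcm3.

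To see how the group as a whole responded, the CPM of the 47 genes were summed in each library. In the cytoplasm the sum was 5751, 5070 and 5910 CPM in NT cultures 1, 2 and 4, and 4888, 4090 and 4185 CPM in N6L cultures 1, 2 and 3. In polysomes it was 5977, 5472 and 6194 CPM in NT cultures and 5084, 3953 and 3883 CPM in N6L cultures. Every N6L culture thus lay below every NT culture in both fractions. Mean sums were 5577 ± 446 (NT) and 4388 ± 436 CPM (N6L) in the cytoplasm, and 5881 ± 370 and 4307 ± 674 CPM in polysomes (SD, n = 3).

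**Figure D1:**
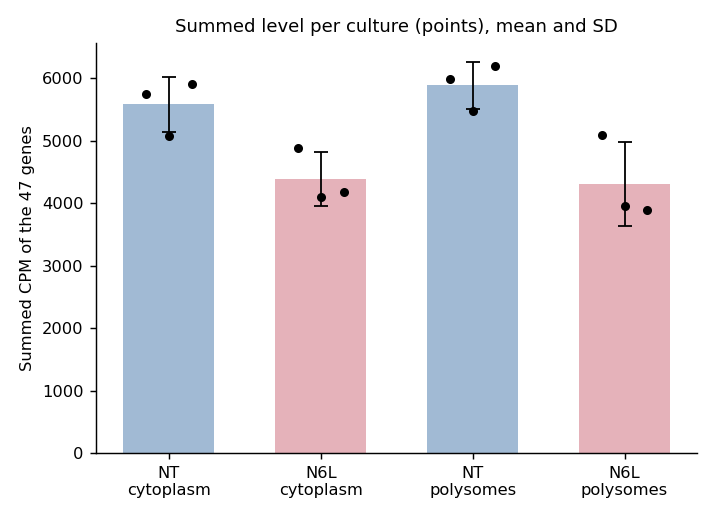
Summed CPM of the 47 genes (vertical axis) in each of 12 libraries, grouped by fraction and treatment on the horizontal axis. Points are cultures, bars are means and error bars are SD (n = 3). The N6L cytoplasmic sums lie between 4090 and 4888 CPM, below the lowest NT value of 5070 CPM, and the N6L polysomal sums lie between 3883 and 5084 CPM, below the lowest NT value of 5472 CPM.

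The first question was which of these mRNAs changed in abundance in the cytoplasm upon N6L treatment. Relative to the other mRNAs of the library, 18 of the 47 mRNAs were lower in N6L-treated cells and none was higher. Those that fell included both ends of the pathway, from the licensing factor Cdt1 and 3 of the 4 GINS subunits to the clamp, 4 of the 5 RFC subunits, Rpa3, Fen1, Tyms and Tk1. The 18 genes were 38.3% of the group, beside 28.3% of all tested genes called, 13.8% lower and 14.5% higher (edgeR's quasi-likelihood test, Benjamini-Hochberg adjusted p, hereafter FDR, under 0.05). The median log2 difference of the 47 genes was -0.31, beside 0.04 for all tested genes. All 3 N6L cultures lay below all 3 NT cultures for 24 genes (51.1%, beside 25.6% of all tested genes) and above them for 1 gene, Rfc1 (2.13%, beside 29.3%).

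The count rested in part on single cultures. It was 8 of 47 without N6L culture 2 and 12 without NT culture 1 or NT culture 4, and 15 to 19 when any other culture was left out. The share of all tested genes called lower fell as well, from 13.8% to 5.22%, 8.51% and 8.52% in the first 3 of these fits. Cdt1, Gins1, Gins2, Gins4, Rfc3, Rpa3, Fen1 and Tyms were the 8 that stayed past the limit without N6L culture 2.

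The polysomal mRNA was then compared in the same way. Here 12 of the 47 genes fell and none rose, or 25.5%, beside 9.67% of all tested genes called, 3.66% lower and 6.01% higher (edgeR, FDR under 0.05). Of these, 8 genes were also lower in the cytoplasm, namely Cdt1, Cdc45, Gins1, Gins4, Rfc3, Rpa3, Fen1 and Tyms. The other 4 were Mcm8, Prim1, Dna2 and Rrm2, and 25 genes were called in neither fraction. Both fractions of a culture came from 1 lysate, so that the 8 shared calls are not independent evidence. DESeq2 called the same 12 genes and 5 more, Cdc6, Mcm7, Orc4, Pold1 and Pole, beside 6.55% of all tested genes called lower. The median log2 difference was -0.49, beside 0.00 for all tested genes, and 45 of the 47 values lay below 0. The groups did not overlap for 21 genes, N6L lower in each (44.7%, beside 11.9% of all tested genes).

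The polysomal calls depended more on single cultures than the cytoplasmic ones. With NT culture 1 or N6L culture 2 left out, none of the 47 genes passed the limit, and 1 gene, Gins1, did so without NT culture 4. In those fits the share of all tested genes called lower fell from 3.66% to 0.327%, 0.121% and 1.05%. Leaving out NT culture 2 gave 7 genes, N6L culture 3 gave 8 and N6L culture 1 gave 23, beside 2.65%, 2.91% and 4.93% of all tested genes called lower. The median of the 47 genes stayed between -0.66 and -0.35 in these 6 fits. N6L culture 3 had the lowest polysomal CPM of the N6L cultures for 30 genes and N6L culture 1 the highest for 34 genes.

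**Figure D2:**
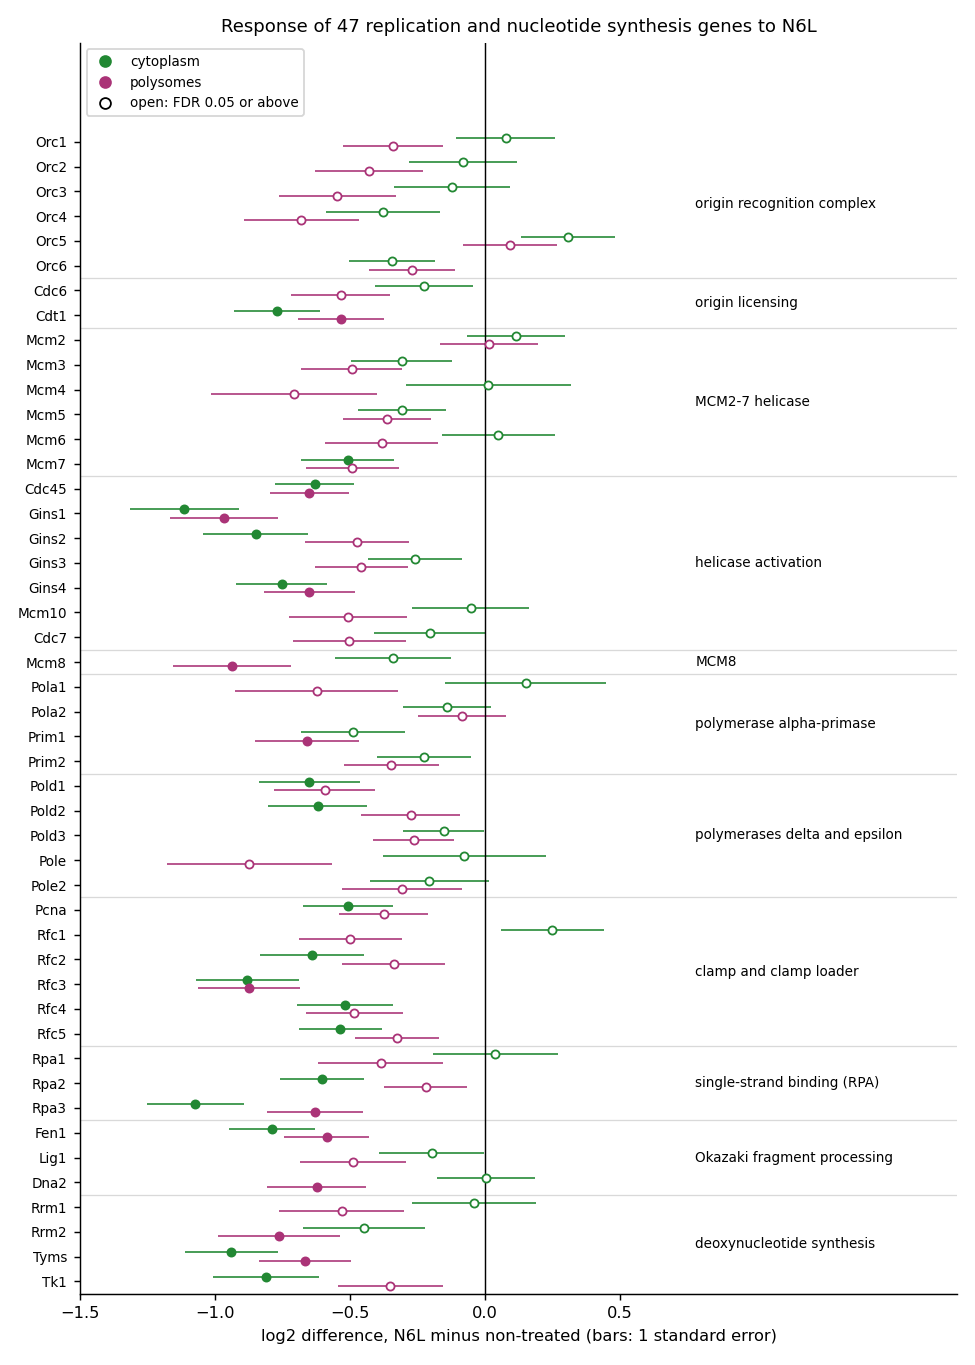
Log2 difference between N6L and NT (horizontal axis) for each of the 47 genes, ordered by role, in the cytoplasm (green) and in polysomes (purple). Points are fitted values from edgeR with bars of 1 standard error, filled where the FDR is under 0.05. In the cytoplasm 38 points and in polysomes 45 points lie below 0, and no filled point lies above 0.

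The 6 ORC subunits mark origins throughout the genome, and the main edgeR fit, used unless stated, called none of them in either fraction. With offsets for length and GC content edgeR called Orc4 lower and Orc5 higher in the cytoplasm. In polysomes it then called Orc2, Orc3 and Orc4 lower. Orc4 came nearest, with 57.9, 40.0 and 45.3 CPM in NT polysomes and 32.6, 34.0 and 22.8 CPM in N6L polysomes. These groups did not overlap, the difference was -0.68 ± 0.21 (SE, log2 scale; edgeR FDR 0.0591), and DESeq2 called Orc4 lower. Orc3 had 54.1, 48.2 and 51.3 against 45.7, 38.2 and 21.2 CPM in polysomes, also without overlap (-0.55 ± 0.22, edgeR FDR 0.124). Orc1, the subunit whose protein rises and falls with the cell cycle, had 22.6, 28.5 and 28.0 CPM in NT cytoplasm and 29.3, 26.6 and 27.4 CPM in N6L cytoplasm. The 2 groups overlapped, with a log2 difference of 0.08 ± 0.18 (SE) and an FDR of 0.773 by edgeR. In polysomes Orc1 had 27.5, 27.2 and 25.5 CPM in NT cultures and 26.6, 21.4 and 15.4 CPM in N6L cultures, a log2 difference of -0.34 ± 0.18 (edgeR FDR 0.262). Orc5, another subunit, had the highest cytoplasmic difference of the 47 genes, 0.31 ± 0.18, with 26.2, 22.7 and 21.5 CPM in NT and 25.9, 34.0 and 27.2 CPM in N6L cultures (edgeR FDR 0.192).

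Licensing is completed by Cdc6, an ATPase, and Cdt1, which brings MCM2-7 to the origin. Cdt1 had 261, 233 and 267 CPM in NT cytoplasm and 174, 123 and 149 CPM in N6L cytoplasm. Its polysomal level was 273, 263 and 266 CPM in NT cultures and 189, 155 and 211 CPM in N6L cultures. The groups were apart in both fractions, and Cdt1 fell by 0.77 ± 0.16 (SE) on the log2 scale, the scale of all differences below, in the cytoplasm (edgeR FDR 0.00493) and by 0.53 ± 0.16 in polysomes (edgeR FDR 0.0492). Cdc6 had 79.3, 69.9 and 71.8 CPM in NT cytoplasm and 74.3, 56.9 and 58.0 CPM in N6L cytoplasm, with overlapping groups and an edgeR FDR of 0.357. In polysomes its level was 82.4, 81.9 and 71.8 CPM against 69.6, 51.1 and 42.3 CPM, which did not overlap but gave an edgeR FDR of 0.0791.

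The helicase ring gave 1 call among its 6 genes in the main edgeR fit, in the cytoplasm. Mcm7 had 318, 292 and 346 CPM in NT cytoplasm and 268, 192 and 213 CPM in N6L cytoplasm. It fell by 0.51 ± 0.17 (edgeR FDR 0.0404), and the call was lost without any 1 of NT culture 1, 2 or 4 or N6L culture 2 or 3. In polysomes Mcm7 had 323, 334 and 340 against 294, 201 and 214 CPM, without overlap, and a difference of -0.49 ± 0.17 that edgeR did not call (FDR 0.0858) and DESeq2 did. Exons of Mcm7 overlap those of Cops6 on the opposite strand, and whether counting used strand is not given in the sources used here. Mcm2 had 248, 207 and 212 CPM in NT cytoplasm and 297, 207 and 219 CPM in N6L cytoplasm, and 238, 269 and 217 against 301, 211 and 220 CPM in polysomes. Those groups overlapped, and the differences were 0.12 ± 0.18 and 0.01 ± 0.18. Mcm5 had 197, 185 and 212 CPM against 192, 136 and 153 CPM in the cytoplasm and 217, 222 and 243 against 209, 157 and 164 CPM in polysomes, with differences of -0.31 ± 0.16 and -0.36 ± 0.16 that were not called (edgeR FDR 0.163 and 0.169).

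Mcm4 differed most between the fractions among the ring subunits. Its cytoplasmic level was 158, 157 and 163 CPM in NT cultures and 170, 158 and 153 CPM in N6L cultures. In polysomes it was 159, 128 and 117 CPM in NT cultures and 132, 78.3 and 36.8 CPM in N6L cultures. The cytoplasmic difference was 0.01 ± 0.31 and the polysomal one -0.71 ± 0.31, neither of them called, and the N6L polysomal values spread more widely than those of NT. Mcm8, an MCM relative that works in homologous recombination with Mcm9, had 30.7, 27.4 and 26.3 CPM in NT polysomes and 20.3, 14.0 and 9.69 CPM in N6L polysomes. It fell by 0.94 ± 0.22 there (edgeR FDR 0.0189), while its cytoplasmic difference of -0.34 ± 0.22 was not called.

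Of the 7 helicase activation genes 4 fell in the cytoplasm and 3 in polysomes. Gins1, a GINS subunit encoded at chr2:150905400-150931280 (GRCm38, GENCODE M21) on the plus strand, had 62.7, 49.4 and 75.2 CPM in NT cytoplasm and 31.1, 25.8 and 29.7 CPM in N6L cytoplasm. In polysomes it had 74.2, 55.1 and 85.6 CPM in NT cultures and 43.4, 33.4 and 33.0 CPM in N6L cultures. These were the lowest fitted differences of the 47 genes in both fractions, -1.11 ± 0.20 (edgeR FDR 0.00259) and -0.97 ± 0.20 (edgeR FDR 0.0105), with N6L at 0.463 and 0.512 of NT.

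Gins2, its partner subunit, had 62.6, 54.1 and 82.1 CPM in NT cytoplasm and 43.0, 32.9 and 34.5 CPM in N6L cytoplasm, and fell by 0.85 ± 0.19 (edgeR FDR 0.0077). Its polysomal values of 84.9, 74.9 and 103 CPM in NT and 61.5, 53.6 and 74.4 CPM in N6L cultures did not overlap but were not called (-0.47 ± 0.19, edgeR FDR 0.135). Gins4 fell by 0.75 ± 0.17 in the cytoplasm and by 0.65 ± 0.17 in polysomes (edgeR FDR 0.00693 and 0.0288). Gins3, the remaining GINS subunit, had differences of -0.26 ± 0.17 and -0.46 ± 0.17 that were not called.

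Cdc45, which joins GINS and MCM2-7 in the active helicase, had 76.0, 69.5 and 76.9 CPM in NT cytoplasm and 55.1, 44.2 and 44.5 CPM in N6L cytoplasm. In polysomes it had 89.0, 81.1 and 87.4 CPM against 62.4, 51.0 and 50.6 CPM. The groups were well apart, and Cdc45 fell by 0.63 ± 0.15 and 0.65 ± 0.15 (edgeR FDR 0.00794 and 0.0154). Mcm10, a scaffold at the fork, had 85.4, 83.6 and 78.2 CPM against 94.5, 69.9 and 74.1 CPM in the cytoplasm and 88.5, 87.7 and 87.7 against 88.1, 55.8 and 41.8 CPM in polysomes. Neither difference was called, and N6L culture 1 lay within the NT range in polysomes while cultures 2 and 3 lay below it.

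Among the 4 polymerase alpha-primase genes the main edgeR fit called Prim1, the catalytic primase subunit, in polysomes and no other. Prim1 had 78.9, 72.7 and 86.7 CPM in NT cytoplasm and 57.0, 57.0 and 56.1 CPM in N6L cytoplasm, without overlap, and its difference of -0.49 ± 0.19 missed the limit in edgeR (FDR 0.0707) and passed it in DESeq2. Its polysomal level was 85.6, 59.9 and 78.9 CPM in NT and 61.5, 45.1 and 35.4 CPM in N6L cultures, which overlapped at NT culture 2, with a difference of -0.66 ± 0.19 (edgeR FDR 0.0461). Pola1, the catalytic polymerase subunit, had 58.3, 46.5 and 39.7 CPM in NT cytoplasm and 52.9, 57.9 and 49.8 CPM in N6L cytoplasm. In polysomes Pola1 had 28.8 to 40.6 CPM in NT and 32.4, 21.5 and 10.3 CPM in N6L cultures, and the differences of 0.15 ± 0.30 and -0.62 ± 0.30 were not called. Pola2, its accessory subunit, had differences of -0.14 ± 0.16 and -0.08 ± 0.16, the latter among the 3 highest of the 47 genes in polysomes.

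Polymerases delta and epsilon copy the lagging and the leading strand. Pold1, the catalytic subunit of delta, had 116, 111 and 119 CPM in NT cytoplasm and 93.4, 57.6 and 69.1 CPM in N6L cytoplasm, and fell by 0.65 ± 0.19 (edgeR FDR 0.0207). Its polysomal values of 107, 126 and 119 against 92.8, 62.6 and 77.3 CPM did not overlap, with a difference of -0.59 ± 0.19 and an edgeR FDR of 0.0603. Pold2, an accessory subunit, fell by 0.62 ± 0.18 in the cytoplasm (edgeR FDR 0.0231). Both calls were lost without NT culture 4 or without N6L culture 2, and that of Pold1 also without NT culture 1.

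Pole, the catalytic subunit of epsilon, had 82.6, 69.8 and 70.3 CPM in NT cytoplasm and 84.0, 61.4 and 66.0 CPM in N6L cytoplasm. In polysomes it had 60.2, 60.6 and 71.8 CPM in NT cultures and 58.0, 29.5 and 17.5 CPM in N6L cultures, all of them below the NT values. The differences were -0.08 ± 0.30 and -0.87 ± 0.31 and were not called (edgeR FDR 0.868 and 0.0866).

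**Figure D3:**
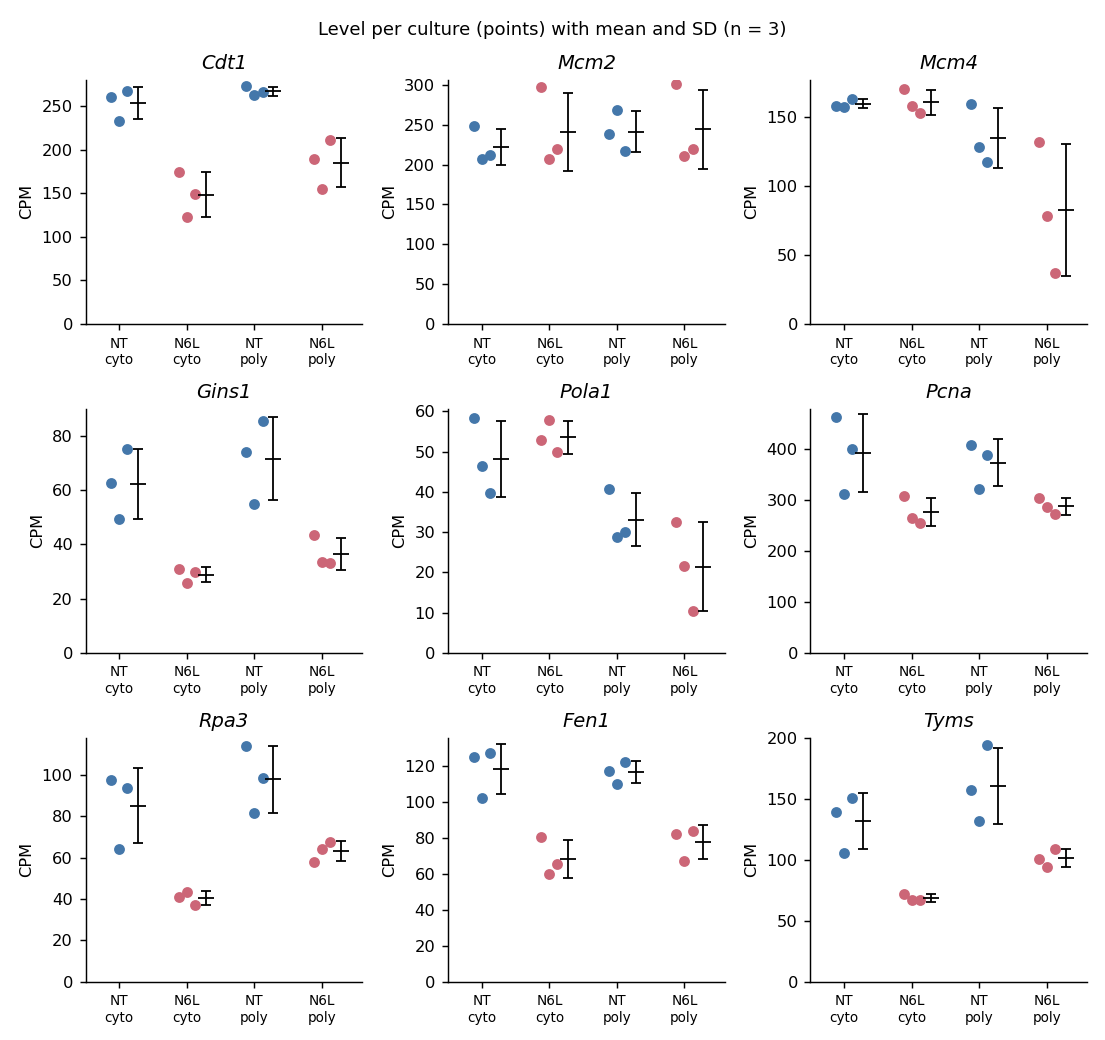
CPM (vertical axes, each from 0) of 9 genes in the 4 groups of cultures (horizontal axes), with NT in blue and N6L in red. Points are cultures in the order of their numbers, and the black bars are the mean and SD (n = 3). Cdt1, Gins1, Rpa3, Fen1 and Tyms are lower in every N6L culture in both fractions, Mcm2 overlaps in both, and Mcm4 and Pola1 spread widely in N6L polysomes.

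The clamp and its loader gave 5 of 6 genes lower in the cytoplasm and 1 of 6 in polysomes. Pcna, the sliding clamp, had 464, 312 and 401 CPM in NT cytoplasm and 308, 265 and 256 CPM in N6L cytoplasm. It fell by 0.51 ± 0.17 (edgeR FDR 0.0347), and the call was lost without NT culture 1 or 4 or N6L culture 2 or 3. In polysomes Pcna had 409, 321 and 389 against 304, 287 and 272 CPM, a difference of -0.37 ± 0.16 that was not called. Pseudogene copies of Pcna are listed in the annotation, so that reads shared with them are uncertain.

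Rfc3 fell in both fractions by almost the same amount. It had 66.6, 55.2 and 81.1 CPM in NT cytoplasm and 36.9, 37.0 and 36.4 CPM in N6L cytoplasm, and 69.5, 59.6 and 93.5 against 46.5, 39.0 and 35.9 CPM in polysomes. The differences were -0.88 ± 0.19 and -0.87 ± 0.19 (edgeR FDR 0.0058 and 0.0134). Of the other small loader subunits, Rfc2, Rfc4 and Rfc5 fell by 0.64, 0.52 and 0.53 in the cytoplasm and were not called in polysomes. The call of Rfc2 was lost without NT culture 1 or 4 or N6L culture 2, that of Rfc5 without NT culture 1 or N6L culture 2, and that of Rfc4 without any culture but NT culture 2. Exons of Rfc4 and Rfc5 overlap those of Eif4a2 and Wsb2 on the opposite strand, as do those of Cdc45 with Ufd1 and of Gins2 with Gse1.

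Rfc1, the large loader subunit, had 144, 137 and 131 CPM in NT cytoplasm and 157, 167 and 166 CPM in N6L cytoplasm, the only gene of the 47 whose N6L cultures all lay above the NT cultures. In polysomes it had 124, 110 and 136 CPM in NT and 113, 89.0 and 59.5 CPM in N6L cultures. Neither the cytoplasmic difference of 0.25 ± 0.19 nor the polysomal one of -0.50 ± 0.19 was called (edgeR FDR 0.329 and 0.112). The direction in the cytoplasm depended on the fit. With offsets for length and GC content, none of the 10 longest genes, Rfc1 and Pola1 among them, had a cytoplasmic difference above 0. In polysomes Rfc1 was then called lower.

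Replication protein A (RPA) coats single-stranded DNA as a trimer, and 2 of its 3 subunits fell in the cytoplasm and 1 in polysomes. Rpa3, the smallest and encoded at chr6:8255936-8259173 on the minus strand, had 97.8, 64.5 and 93.6 CPM in NT cytoplasm and 41.2, 43.6 and 37.0 CPM in N6L cytoplasm. In polysomes it had 114, 81.5 and 98.8 CPM in NT and 58.2, 64.1 and 67.7 CPM in N6L cultures. Rpa3 fell by 1.07 ± 0.18 and by 0.63 ± 0.18 (edgeR FDR 0.00196 and 0.0412). Both calls were lost with offsets for length and GC content alone. The cytoplasmic one was kept when the replicate number was also added as a block. In that fit only cultures 1 and 2 set the treatment difference. Rpa2 fell by 0.60 ± 0.15 in the cytoplasm (edgeR FDR 0.0125), with a polysomal difference of -0.22 ± 0.15 that was not called. Rpa1, the large DNA-binding subunit, had a cytoplasmic difference of 0.04 ± 0.23 and a polysomal one of -0.39 ± 0.23, neither of them called.

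Okazaki fragments are trimmed by Fen1 and Dna2 and joined by Lig1. Fen1 had 125, 102 and 127 CPM in NT cytoplasm and 80.1, 59.6 and 65.3 CPM in N6L cytoplasm, and 117, 110 and 122 against 81.9, 66.8 and 83.9 CPM in polysomes. The groups were apart in both, and Fen1 fell by 0.79 ± 0.16 and 0.59 ± 0.16 (edgeR FDR 0.00421 and 0.0332), although its exons overlap those of Tmem258 on the opposite strand. Dna2 had 14.9, 13.4 and 13.4 CPM against 14.6, 13.5 and 13.8 CPM in the cytoplasm, and 14.7, 14.9 and 15.2 against 12.6, 9.27 and 7.24 CPM in polysomes. Only its polysomal difference of -0.62 ± 0.18 was called (edgeR FDR 0.0467). Lig1 had 124, 116 and 140 against 127, 96.7 and 109 CPM in the cytoplasm and 124, 129 and 130 against 125, 75.5 and 72.5 CPM in polysomes, and was called in neither.

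Of the 4 deoxynucleotide genes, Tyms and Tk1 fell in the cytoplasm and Tyms and Rrm2 in polysomes. Tyms, thymidylate synthase, had 139, 106 and 151 CPM in NT cytoplasm and 72.1, 66.9 and 67.0 CPM in N6L cytoplasm. In polysomes it had 157, 132 and 194 CPM in NT and 101, 94.4 and 109 CPM in N6L cultures, and fell by 0.94 ± 0.17 and 0.67 ± 0.17 (edgeR FDR 0.00275 and 0.0283), although a pseudogene of it is listed. Tk1, the S phase thymidine kinase, had 209, 171 and 246 CPM in NT cytoplasm and 131, 107 and 118 CPM in N6L cytoplasm, a fall of 0.81 ± 0.20 (edgeR FDR 0.0098). Its polysomal levels of 230, 217 and 312 against 172, 177 and 246 CPM overlapped and were not called.

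Ribonucleotide reductase makes deoxynucleotides from a large subunit, Rrm1, and a small one, Rrm2. Rrm2 had 293, 214 and 295 CPM in NT cytoplasm and 213, 195 and 182 CPM in N6L cytoplasm, which was not called (edgeR FDR 0.147). In polysomes Rrm2 had 289, 208 and 248 CPM in NT and 192, 153 and 94.1 CPM in N6L cultures, which did not overlap, and fell by 0.76 ± 0.23 (edgeR FDR 0.0487). Rrm1 was level in the cytoplasm, with 181, 180 and 186 against 191, 170 and 170 CPM and a difference of -0.04 ± 0.23. Its polysomal values were 177, 164 and 175 CPM in NT and 172, 115 and 69.9 CPM in N6L cultures, a difference of -0.53 ± 0.23 that was not called.

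The next question was how each mRNA stood in polysomes relative to the cytoplasm of the same treatment. In single cultures, given further below, this was the log2 ratio of polysomal to cytoplasmic CPM. The main edgeR fit compared the fractions as groups of libraries, without pairing those of a lysate. Both levels are relative to the other mRNAs of their library, so that the share of an mRNA on polysomes was not measured. A higher value can go with less of that mRNA on polysomes. In NT cultures no gene of the 47 differed between the fractions (smallest edgeR FDR 0.327, 1 gene with an unadjusted p under 0.05), beside 0.209% of all tested genes called and 13.4% with such a p. DESeq2 likewise called none of the 47 in this comparison. In N6L cultures 17 of the 47 did, 8 higher in polysomes and 9 lower, beside 18.4% of all tested genes called higher and 20.6% called lower, so that the share in the group was near the background on both sides. The higher ones were Gins2 (0.78), Rfc2 (0.77), Tk1 (0.74), Rpa2 (0.67), Rpa3 (0.64), Pold2 (0.63), Tyms (0.56) and Rfc5 (0.47), given as log2 differences. The lower ones were Pola1 (-1.32), Pole (-1.01), Mcm4 (-0.96), Rfc1 (-0.91), Mcm8 (-0.71), Orc4 (-0.69), Orc3 (-0.65), Orc2 (-0.55) and Dna2 (-0.53). With the offsets for length and GC content given below, 5 of the 17 calls remained, all of them higher. The differences of Orc4 (0.17) and Pold2 (-0.0272) changed sign. When the fractions of a lysate were also paired, 12 of the 17 calls remained.

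These calls also leaned on single cultures, since 0 were left when N6L culture 2 was dropped and 2 when N6L culture 3 was, while the share of all tested genes called fell from 39.0% to 8.22% and 11.7%. In a fit that blocked on the culture, so that both fractions of a lysate were compared directly, all 17 calls remained and 8 were added, Cdt1, Gins1, Gins4 and Pola2 among the higher and Orc1, Mcm10, Rrm1 and Rrm2 among the lower. That fit called 53.7% of all tested genes, up from 39.0%, so that the added calls went with the background.

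The translational index (TI) compared the polysome-to-cytoplasm log2 difference, also without pairing, between N6L and NT cultures. None of the 47 genes, nor any of the 13889 tested, was called by edgeR or by DESeq2 (smallest edgeR FDR in the group 0.555). An unadjusted p under 0.05 was found for 2 of the 47 genes, Rfc1 and Dna2, beside 7.73% of all tested genes. The 3 highest TI values belonged to Tk1 (0.46 ± 0.28), Rpa3 (0.44 ± 0.25) and Rpa2 (0.38 ± 0.22), and the 3 lowest to Pole (-0.80 ± 0.43), Pola1 (-0.77 ± 0.42) and Rfc1 (-0.75 ± 0.27). A gene called in 1 fraction and not in the other was therefore not shown to respond differently in the 2 fractions.

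The single cultures show where these values came from. The ratio of Rfc1 was -0.22, -0.32 and 0.05 in NT cultures 1, 2 and 4 and -0.48, -0.91 and -1.48 in N6L cultures 1, 2 and 3. Pola1 had -0.52, -0.69 and -0.40 in NT and -0.71, -1.42 and -2.27 in N6L cultures. Rpa2 had 0.29, 0.27 and 0.30 in NT and 0.50, 0.66 and 0.84 in N6L cultures. In each of the 3 genes the NT and N6L cultures did not overlap, and an exact permutation test over 3 against 3 cultures can give no p below 0.1.

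The ratio was lower in all N6L than in all NT cultures for 11 genes (23.4%, beside 14.4% of all tested genes) and higher for 5 genes (10.6%, beside 15.3%). N6L culture 3 had the lowest ratio of the N6L cultures for 32 genes. Mcm10 alone had a ratio above 0 in all NT cultures and below 0 in all N6L cultures, with 0.05, 0.07 and 0.16 against -0.10, -0.32 and -0.83.

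**Figure D4:**
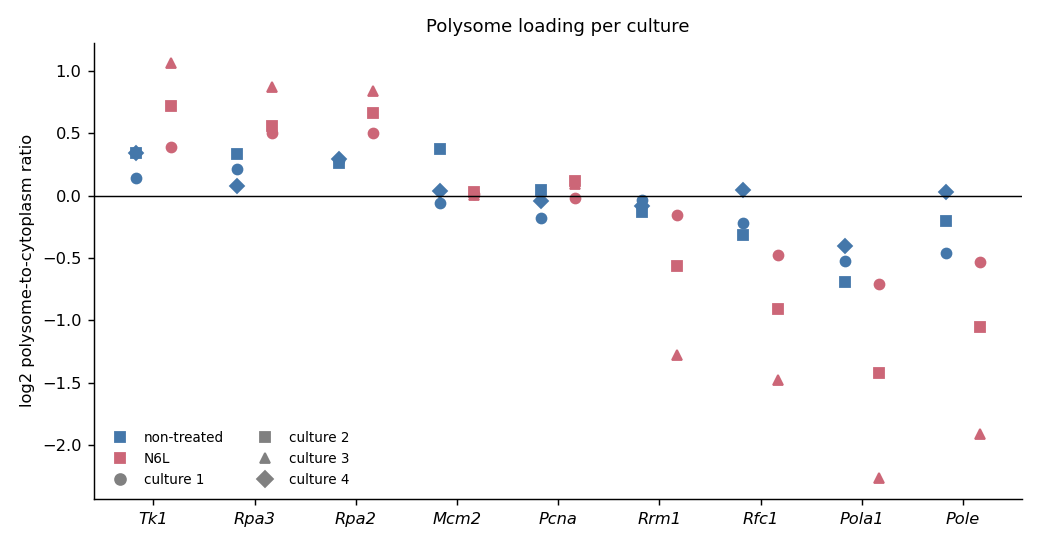
Log2 ratio of polysomal to cytoplasmic CPM (vertical axis) in each culture for 9 genes (horizontal axis), with NT in blue and N6L in red and 1 symbol per culture number. Tk1, Rpa3 and Rpa2 lie above 0 in all 6 cultures, Mcm2 reaches 0.38 in NT culture 2 and lies between 0.01 and 0.03 in N6L cultures, and Rfc1, Pola1 and Pole run down to -1.48, -2.27 and -1.91 in N6L culture 3.

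Transcript length moved with the cytoplasmic, polysome-to-cytoplasm and TI values, in the group and in all genes, and hardly with the polysomal N6L to NT difference. The longest coding transcript of the 47 genes had a median of 3014 bases (670 to 7163), beside 2868 bases for all tested genes. The isoform in use was not determined and may be shorter. Across the 47 genes, which are not independent replicates, Spearman's rho between length and the log2 difference was 0.557 in the cytoplasm, -0.088 in polysomes, -0.528 for the N6L polysome-to-cytoplasm difference and -0.619 for TI. Across 13867 tested genes with a length it was 0.504, 0.132, -0.633 and -0.546. The GC content of the transcript moved with the values of the 47 genes too, with a rho of -0.282 in the cytoplasm, 0.238 in polysomes, 0.496 for the N6L and 0.507 for the NT polysome-to-cytoplasm difference, and 0.42 for TI.

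The 10 shortest genes, from Rpa3 with 670 bases to Pold2 with 1646 bases, had a median cytoplasmic difference of -0.69, and 8 of them were called lower there. The 10 longest, 4066 to 7163 bases and including Rfc1, Pola1 and Pole, had a median of -0.02, with 1 called. In polysomes the medians were -0.56 and -0.52. The N6L polysome-to-cytoplasm median was 0.30 for the short and -0.44 for the long genes. With the offsets described next, the medians of the short and the long genes were -0.33 and -0.39 in the cytoplasm. In polysomes they were -0.35 and -0.59, and for the N6L polysome-to-cytoplasm difference -0.01 and 0.11.

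With offsets for length and GC content in each library, 14 of the 18 cytoplasmic calls remained, Pcna, Pold2, Rfc4 and Rpa3 were lost, and Cdc6, Mcm5, Mcm8, Mcm10 and Orc4 were added as lower and Orc5 as higher. That fit called 14.4% of all tested genes lower in the cytoplasm, compared with 13.8% without offsets. In polysomes the same offsets gave 31 genes lower and none higher, beside 10.3% of all tested genes called lower. Added there were Cdc6, Cdc7, Gins2, Gins3, Lig1, Mcm3, Mcm4, Mcm5, Mcm7 and Mcm10. The other additions were Orc2, Orc3, Orc4, Pola1, Pold1, Pold2, Pole, Rfc1, Rrm1 and Tk1. Of the 12 polysomal calls 11 remained and that of Rpa3 was lost, so that Rpa3 was called in neither fraction with the offsets alone. With a replicate block added, its cytoplasmic call was kept and its polysomal call was lost. The split of the N6L polysome-to-cytoplasm calls went from 8 higher and 9 lower to 5 higher and 0 lower, while the share of all tested genes called went from 39.0% to 15.9%, of which 7.42% were lower. With the offsets and the pairing of both fractions of a lysate together, the split was 7 higher and 10 lower, 12 of the 17 calls remained, and 31.2% of all tested genes were called. The medians of the 47 genes with offsets alone were -0.37 in the cytoplasm and -0.53 in polysomes. Spearman's rho with length across the 47 genes was then -0.155 in the cytoplasm and -0.386 in polysomes. It was -0.094 for the N6L polysome-to-cytoplasm difference and -0.315 for TI. Across all genes with a length these values were -0.043, -0.004, 0.04 and 0.047. In the group the polysomal rho went from -0.088 without the offsets to -0.386 with them, so that the length trend there was stronger with the offsets. The offsets correct length and GC content together, and the part of each in these results was not tested.

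**Figure D5:**
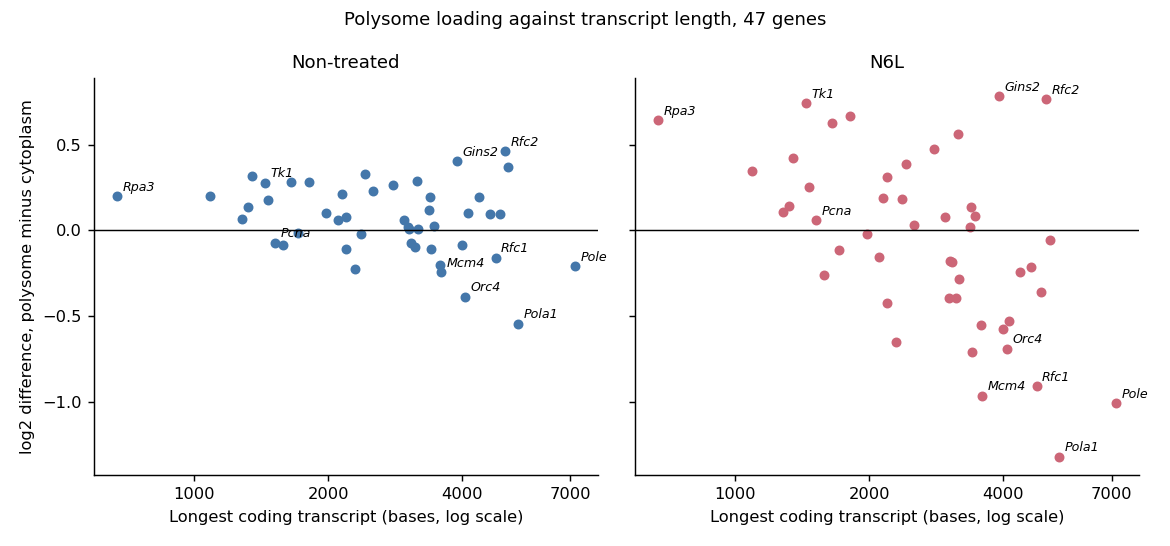
Log2 difference between polysomes and cytoplasm (vertical axes) against the length of the longest coding transcript in bases (horizontal axes, log scale) for the 47 genes, in NT cultures (left, blue) and in N6L cultures (right, red). Each point is 1 gene and 10 are named. NT values lie between -0.54 and 0.46, and N6L values spread from -1.32 for Pola1 to 0.78 for Gins2, with Spearman's rho of -0.241 and -0.528.

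The calls were also counted by promoter motif. Of the 16 genes with an E2F-type motif in their window, which include Cdt1, Mcm7, Pold1 and Rfc3, 4 fell in the cytoplasm and 3 in polysomes, with median log2 differences of -0.24 and -0.49. Of the 24 genes with a window but no motif, among them Pcna, Rpa3, Fen1 and Tyms, 10 and 7 fell, with medians of -0.41 and -0.49. Of all tested genes 13.8% were called lower in the cytoplasm and 3.66% in polysomes. The lack of a match says only that these 8 letters are not in this window. Whether the 2 sets differ was not tested.

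Lists of further genes around the same pathway were counted for comparison. Among 34 other replication factors 15 fell and 2 rose in the cytoplasm and 10 fell in polysomes. The shares of all tested genes, for these lists too, were 13.8% lower and 14.5% higher in the cytoplasm and 3.66% lower and 6.01% higher in polysomes. With single cultures left out, the calls of the 34 genes went down to 7 in the cytoplasm and to 0 in polysomes. The largest cytoplasmic changes were those of Rnaseh2c, a ribonuclease H2 subunit, with 56.1, 52.7 and 103 CPM in NT and 29.1, 24.1 and 28.5 CPM in N6L cultures (-1.38 ± 0.34, edgeR FDR 0.0111), and Recql4, a helicase, with 126, 123 and 101 against 68.5, 42.5 and 47.5 CPM (-1.14 ± 0.21, edgeR FDR 0.00311).

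Among 13 other genes of deoxynucleotide supply 6 fell in the cytoplasm and 2 in polysomes. Dut, which removes dUTP, had 449, 351 and 563 CPM in NT cytoplasm and 183, 173 and 188 CPM in N6L cytoplasm (-1.33 ± 0.21, edgeR FDR 0.00169). Nme1, a nucleoside diphosphate kinase, had 191, 175 and 304 against 89.3, 92.9 and 96.0 CPM (-1.27 ± 0.25, edgeR FDR 0.00394). Both were thus lower in every N6L culture than in any NT culture.

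Among 20 genes of de novo purine and pyrimidine synthesis 5 fell and 1 rose in the cytoplasm, and 6 fell and 1 rose in polysomes. Mthfd2, a mitochondrial folate enzyme, had 490, 487 and 398 CPM in NT and 251, 217 and 222 CPM in N6L cytoplasm (-0.996 ± 0.147, edgeR FDR 0.00115). Impdh2, which commits IMP to guanine nucleotides, had 318, 330 and 436 against 222, 173 and 183 CPM (-0.91 ± 0.17, edgeR FDR 0.00268).

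Among 13 E2F and Rb family regulators 2 fell and 1 rose in the cytoplasm, or 15.4% and 7.69%, which for the falls was near the background, and none was called in polysomes, where 4 had an unadjusted p under 0.05, beside 26.5% of all tested genes, and DESeq2 called 2. Rbl2, the pocket protein p130 of resting cells, had 29.3, 27.2 and 19.2 CPM in NT and 44.0, 52.8 and 48.0 CPM in N6L cytoplasm (0.93 ± 0.23, edgeR FDR 0.0107). E2f1, an activating E2F, had 110, 84.9 and 99.3 against 61.6, 51.8 and 53.2 CPM (-0.82 ± 0.17, edgeR FDR 0.00476).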

How the data were processed

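RNA-seq libraries of cytoplasmic and polysomal RNA from mPDAC cells were processed by the authors with bcl2fastq 2.18.0.12, STAR and HTSeq 0.5.3 on mm10 (submitters' notes and methods). The deposited files hold raw counts per gene, not normalized. The annotation release, strand setting and handling of multimapping reads were not given in the sources used here. The 4 technical replicates of each library (chi-square per df 1.01 to 1.05 between them) were summed. Of 48 files, 3 carried a culture number in 1 label that conflicted with another and were kept in N6L culture 2, whose counts they matched with a chi-square per df of 1.01 to 1.04, compared with 12.0 to 12.1 for culture 1. Leaving them out changed no count of calls among the 47 genes.

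After filterByExpr and TMM normalization, counts were fitted with edgeR 4.0.16 (R 4.3.3, quasi-likelihood test) with 1 mean per group over all 12 libraries, and p-values were adjusted by Benjamini-Hochberg over 13889 genes with a limit of 0.05. Alternatives were DESeq2 1.42.0, RLE or library size scaling, other filters, offsets for length and GC content from GENCODE M21 transcripts, the culture or replicate number as a block, 1 technical replicate alone, and each culture left out. Cytoplasm and polysomes of a culture share a lysate and are paired for that reason. Their deviations from the group means correlated with r = 0.199 to 0.645 in 5 cultures and 0.0368 in N6L culture 1. Log2 ratios per culture used a prior count of 2. The edgeR test was tested on simulated data for 200 changed genes, of which it recovered 65% at a log2 fold of 1 and 93% at 2 in the cytoplasm (13707 genes), 55% and 92% in polysomes (13727 genes), and 22% and 79% for TI (13712 genes). The simulated libraries were drawn independently, without the pairing of fractions or the length trend of the data.

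The 47 genes and the other lists were chosen with earlier results of these data known. Named with their values were 20 genes set by role, the 3 highest and 3 lowest in the cytoplasm, polysomes and TI, genes called in any comparison, and the 2 largest cytoplasmic calls of each other list. Mcm4 and the polysomal or cytoplasmic values of Orc3, Orc4, Prim1 and Mcm7 were given in full after they were seen. The differences of Gins3 and Rpa1 and the levels per kb of Mcm3 and Cdc7 were given outside these rules. Promoter sequences are from RefSeq (GRCm38.p6).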

Additional observations from a re-analysis of the deposited data

How the results depend on the processing

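Across 16 alternatives, 3040 values of 38 named genes were recomputed, of which 170 lost and 86 gained a call and 4 called values changed sign. Those 4 were the N6L polysome-to-cytoplasm differences of Orc4 (0.17 and 0.17) and Pold2 (-0.0272 and -0.0305) with length and GC offsets, without and with the replicate block. With scaling by library size alone, the median of all genes shifted from 0.04 to 0.19 in the cytoplasm, and that of the 47 genes was -0.16 in the cytoplasm and 0.0059 for NT polysomes against cytoplasm. That scaling gave 7 polysomal calls among the 47, and 11 cytoplasmic and 6 polysomal calls among the other replication factors. It called 9.81% of all tested genes lower in the cytoplasm and 2.25% in polysomes. The list of other replication factors had 16 polysomal calls with no filter, 17 with DESeq2 and 5 with technical replicate a alone. Those 3 fits called 2.65%, 6.55% and 2.94% of all tested genes lower in polysomes. Deoxynucleotide supply had 4 polysomal calls with no filter. Length and GC offsets gave 31 polysomal and 5 N6L polysome-to-cytoplasm calls among the 47, 22 polysomal calls among the other replication factors, 13 in purine and pyrimidine synthesis, and 5 cytoplasmic and 4 polysomal calls among E2F and Rb regulators. With them, 14.4% of all tested genes were called lower in the cytoplasm, 10.3% were lower in polysomes and 15.9% were called between N6L fractions. DESeq2 called 2 of the E2F and Rb regulators in polysomes. The causes were not tested.

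The replicate number shared by NT and N6L cultures 1 and 2 marks no shared source in the labels (r = 0.0076 to 0.296 between their deviations). With it as a replicate block, 17 cytoplasmic calls were found among the 47 genes (Mcm7 and Pcna lost, Prim1 added) and 12 polysomal ones (Dna2, Gins4 and Prim1 lost, Orc4, Pold1 and Pole added), and 1 E2F and Rb regulator was called in polysomes. That fit called 13.4% of all tested genes lower in the cytoplasm and 5.67% in polysomes, compared with 13.8% and 3.66% without the block. Only cultures 1 and 2 of each treatment set the N6L to NT difference with this block, alone or with the offsets. The cultures whose number is not shared do not enter that difference, so that these counts do not test the full set of cultures. Pairing the fractions of a culture gave 25 N6L polysome-to-cytoplasm calls, beside 53.7% of all tested genes called. The replicate block together with the offsets gave 14 polysomal calls (7 of the 12 kept, with Dna2, Gins4, Prim1, Rfc3 and Rpa3 lost), 17 N6L polysome-to-cytoplasm and 2 NT polysome-to-cytoplasm calls, 10 cytoplasmic calls in purine and pyrimidine synthesis, and 6 cytoplasmic and 2 polysomal calls among E2F and Rb regulators. In that fit 14.2% of all tested genes were called lower in the cytoplasm and 4.92% in polysomes. Between the fractions 31.2% were called in N6L and 4.05% in NT cultures.

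Leaving out each culture in turn gave 8 to 19 cytoplasmic, 0 to 23 polysomal and 0 to 22 N6L polysome-to-cytoplasm calls among the 47 genes. Of all tested genes, 5.22% to 13.4% were then called lower in the cytoplasm and 0.121% to 4.93% in polysomes. Between N6L fractions 8.22% to 41.8% were called. The medians of the 47 genes ranged from -0.36 to -0.26 in the cytoplasm, -0.66 to -0.35 in polysomes, -0.15 to 0.05 for N6L and 0.04 to 0.09 for NT polysomes against cytoplasm, and -0.25 to -0.04 for TI. Cytoplasmic and polysomal calls were 7 to 17 and 0 to 20 for the other replication factors, 3 to 7 and 0 to 2 for deoxynucleotide supply, 3 to 7 and 1 to 9 for purine and pyrimidine synthesis, and 1 to 3 and 0 to 1 for E2F and Rb regulators. TI gave no call among the 47 in any fit. With 3 cultures per treatment and a common biological coefficient of variation of 0.197, a simulated TI difference of 1 on the log2 scale was recovered in 22% of genes by edgeR and 36% by DESeq2, and one of 2 in 79% and 85%. The simulated libraries lacked the pairing of fractions and the length trend of the data, so that these shares may not hold for the data. The TI values of the 47 genes were all under 1 in size.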
